A study of Saccharum hybrid cultivar with 68 samples.

Results

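The mRNA of early-stage sugarcane leaf was compared between the genotypes ROC22 and GT86_887, with 3 libraries of each. The labels and the plots write the second name with a hyphen. The members were the 6 libraries labelled leaf, early stage of sucrose accumulation and either genotype, out of 36 mRNA libraries and 68 libraries in the series. Both genotypes are cultivated Saccharum hybrids, which the series description says contrast in sucrose content. The sources used here do not give which of them holds more sucrose, how old the plants were or any treatment. It is not labelled whether the 3 libraries of a group stem from different plants. The p-values therefore rest on the spread among libraries, and that spread may be technical. The other mRNA libraries covered the same genotypes in leaf at the middle and late stages and in stem at all 3 stages. They served here to estimate spread and to show where the early leaf difference recurred. The series title asks about microRNA control of genes and transcription factors of sugar metabolism.

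Mature leaves are the source organ of sugarcane, where photosynthesis makes the sucrose that is loaded into the phloem and stored in the stem. Modern sugarcane hybrids are highly polyploid, so a gene is present in many copies that differ between genotypes, and reads were counted here on assembled transcripts called unigenes. The files give unigenes identifiers such as c120823.graph_c0 and no gene name. A gene role can therefore be approached only through the degradome table, which pairs 752 unigenes with microRNAs (miRNAs). MiRNAs are short RNAs that guide the cleavage of matching mRNAs, and a degradome library sequences the fragment ends that such cleavage leaves. Roles below are those known for the family's targets in plants and were not checked for a single unigene. Marker genes of leaf could not be named for the same reason. In place of markers, the log-scale correlation of an early leaf library was 0.966 to 0.978 with its own group, 0.863 to 0.875 with early leaf of the other genotype and 0.758 to 0.786 with early stem of its own genotype.

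The miRNA entries whose paired unigenes carry the results are shown first, as DNA letters 5′ to 3′ with the seed (bases 2 to 8) in capitals. The first 3 share a seed and belong to miR156 and miR157, which target SPL transcription factors of the passage from juvenile to adult growth.
miR156-x: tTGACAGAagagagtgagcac
miR156-z: tTGACAGAagagagggagcac
miR157-x: tTGACAGAagatagtgagcac
miR172-y belongs to a family that targets AP2-like transcription factors and acts after miR156 in the same passage. The miR396 entries belong to a family whose targets are growth-regulating factors, and miR160-x to one whose targets are auxin response factors.
miR172-y: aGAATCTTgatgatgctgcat
miR396-x: tCCACAGGctttcttgaactg
miR396-z: tCCACAGGctttcttgaacgg
miR160-x: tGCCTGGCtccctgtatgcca
The family of miR393-x targets auxin receptors, that of miR395-z ATP sulfurylases and a sulfate transporter, that of miR528-x copper proteins of grasses, and that of miR827 SPX-domain genes of phosphate supply. The 2 miR827 entries shown share a seed, and miR827-x, which is not shown, has another.
miR393-x: cTCCAAAGggatcgcatttt
miR395-z: tGAAGTACttgggggaact
miR528-x: tGGAAGGGgcatgcagaggag
miR827-y: tTAGATGAccatcagcaaaca
miR827-z: tTAGATGAccatcaacaaaca

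Summed counts were 21869499, 22586865 and 23072130 in the ROC22 libraries and 17970015, 19354062 and 18753770 in the GT86_887 libraries. Every ROC22 library was deeper than every GT86_887 library, so depth and genotype cannot be told apart. Outside the early leaf, the libraries labelled GT86_887 middle leaf 1 and GT86_887 middle stem 1 went against their labels. They carried 643.4 and 602.5 CPM (counts scaled to a common library total) of a set of unigenes that had no count in early leaf of GT86_887, where the other 13 GT86_887 libraries outside the early leaf carried 2.77 to 8.40. That set was chosen on the early leaf libraries, so it cannot be used to check those. Counts over all unigenes and differences between stages and tissues that rest on these 2 libraries are given with and without them. Of single unigenes in early leaf, all 34 passing paired ones of conserved families and all 10 others selected by rule were called alike without them.

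The genotypes differed across a large share of the leaf transcriptome, in both directions. Of 100182 unigenes, 37678 passed the filter on low counts and were tested, of which 37667 had a count in the early leaf. Of those tested, 12724 (33.8%) differed between the genotypes at an adjusted p below 0.05 in edgeR's quasi-likelihood test. Higher in ROC22 were 6313 (16.8%) and lower were 6411 (17%), and the median log2 change over all tested was 0.02. Among the higher unigenes the median log2 change was 1.46, and among the lower ones it was -1.75. A change of 2-fold or more was seen in 4218 higher and 4724 lower unigenes, and one of 16-fold or more in 1144 and 1463. Without the 2 libraries that went against their labels, 16088 of 39596 unigenes (40.6%) passed, and 12715 of the 12724 calls were made again in the same direction. A fit of the 6 early libraries alone called 12793 unigenes, of which 5726 were higher and 7067 lower in ROC22. With library totals as the only scaling, 5079 were higher and 7562 lower, so the balance between the directions depended on the scaling.

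**Figure D1:**
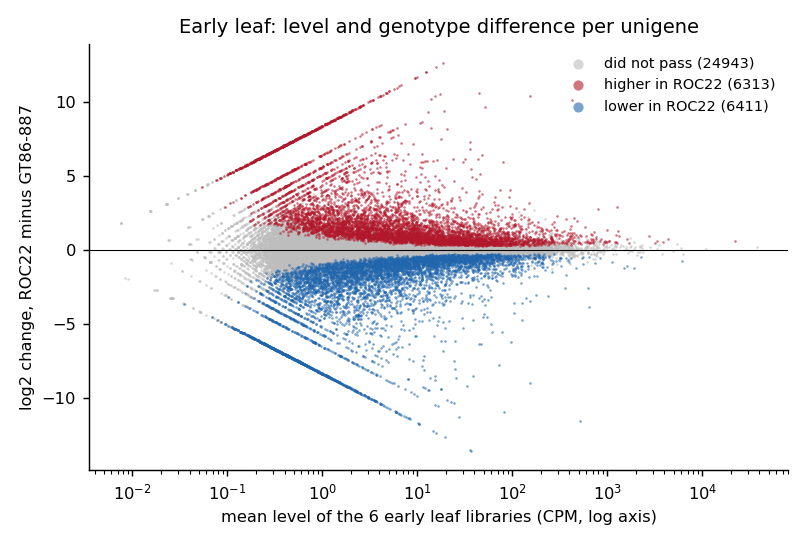
Mean level of each tested unigene with a count in the early leaf (CPM, log axis) against its log2 change, ROC22 minus GT86_887; red is higher in ROC22, blue lower, grey did not pass. Passing unigenes number 6313 above and 6411 below the line, and the straight lines of points at the left are unigenes with no or few counts in 1 genotype.

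The tested unigenes were split into 4 bins of equal size by mean CPM. In the lowest bin 31.9% passed, with a median absolute log2 change of 4.18. In the highest bin 31.2% passed, with a median absolute log2 change of 0.707. Both medians are over unigenes that passed, and a unigene of few counts passes only with a large change. Of the 10 unigenes with the highest mean FPKM (a level scaled by library total and by transcript length), 3 passed, 2 higher and 1 lower in ROC22, and the log2 changes of all 10 lay between -0.77 and 0.58. The most abundant unigene that rose at least 2-fold with groups apart was c120823.graph_c0. Its level was 1850, 1906 and 1800 CPM in ROC22 and 747.4, 718.1 and 835.8 CPM in GT86_887. The groups did not overlap, and the log2 change was 1.27 ± 0.19 (SE, adjusted p = 0.000135). Its counterpart among those that fell was c136792.graph_c0, with 907.0, 1304 and 1207 CPM in ROC22 and 3849, 2170 and 2018 CPM in GT86_887. One GT86_887 library stood well above the other two, and the log2 change was -1.23 ± 0.26 (adjusted p = 0.00177). In stem both unigenes were low, at no more than 35.6 and 26.0 CPM as a group mean scaled over all 36 mRNA libraries.

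Some unigenes were counted in only 1 genotype. In ROC22, 29408 unigenes had 10 or more counts in each early leaf library, and 391 of these (1.33%) had no count in any of the 3 GT86_887 libraries. In the other direction the figures were 542 of 29101 (1.86%). The unigene with the largest count among the first was c83064.graph_c0, with 846, 811 and 788 counts in ROC22 and 0 in each GT86_887 library. Set against a floor of 3 counts over the group, it was at least 676.8-fold higher in ROC22, the lower of the bounds under TMM and library-total scaling. Among the second, c54951.graph_c1 had 1822, 1100 and 1364 counts in GT86_887 and 0 in each ROC22 library, at least 1594-fold lower in ROC22 by the same rule. With every library thinned to the smallest total, a setting chosen after seeing the data, the sets held 319 and 553 unigenes.

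The same sets were followed in the libraries that did not choose them, as a description. The ROC22 set summed to 845.4 to 1100 CPM in the other 15 ROC22 libraries, stem included. In 13 of the other 15 GT86_887 libraries it summed to 2.77 to 8.40 CPM, and in the remaining 2, named above, to 643.4 and 602.5 CPM. The GT86_887 set summed to 1032 to 1353 CPM in those 13 libraries, to 294.4 and 306.1 CPM in the 2, and to 3.48 to 30.2 CPM in the other 15 ROC22 libraries. Leaving the 2 out, 170 of the 391 (43.5%) and 232 of the 542 (42.8%) had no count in any other library of the genotype that lacked them. Only 8 (2.05%) and 22 (4.06%) reached 10 counts in any such library. Between tissues, c83064.graph_c0 had a group mean of 190.1 ± 38.8 CPM in early ROC22 stem against 40.4 ± 2.49 in early ROC22 leaf (SD, n = 3), whereas c54951.graph_c1 had 0.103 ± 0.140 CPM in early GT86_887 stem against 80.2 ± 22.5 in leaf.

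**Figure D2:**
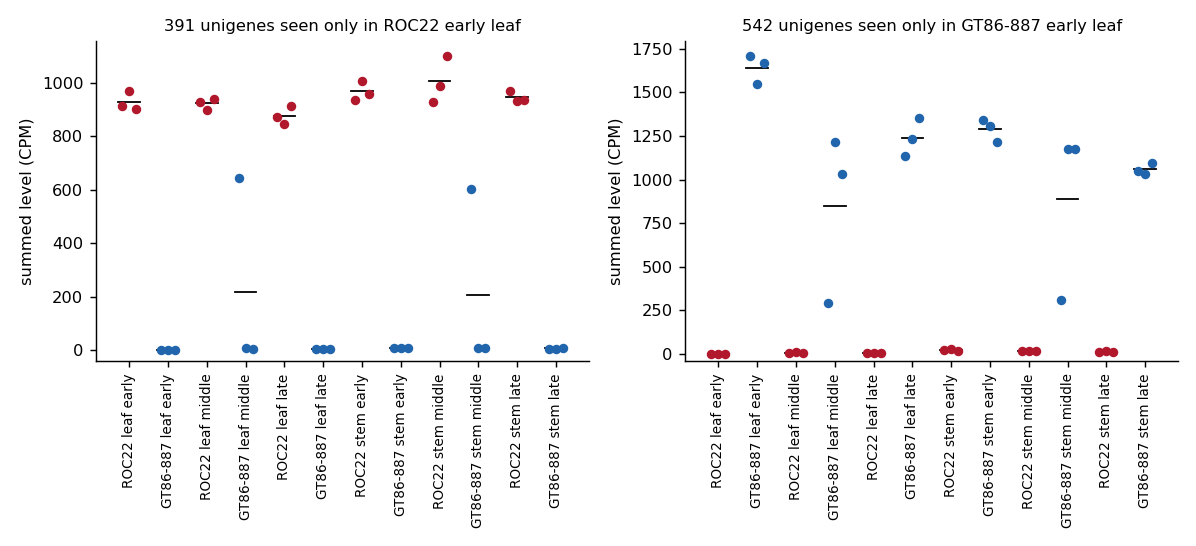
Summed level (CPM) of the 391 unigenes counted only in ROC22 early leaf (left) and the 542 counted only in GT86_887 early leaf (right) in all 36 mRNA libraries; each point is a library, red ROC22 and blue GT86_887, and the bar is the group mean. The early leaf groups chose the sets; elsewhere the genotypes stay apart except for the libraries labelled GT86_887 middle leaf 1 and middle stem 1, at 643.4 and 602.5 CPM on the left.

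The degradome table paired unigenes with 220 numbered miRNA families. Of its 752 unigenes, 709 were tested and 213 (30.0%) passed, 123 higher and 90 lower in ROC22, beside 33.8% of all tested. Their median log2 change was 0.06. Of the 709, 250 had no tag in the early leaf degradome library of either genotype. Of unigenes paired with families that target transcription factors, 56 of 60 were tested and 20 passed, 8 higher and 12 lower, with a median of -0.07. Of those paired with nutrient and copper families, 28 of 30 were tested and 13 passed, 10 higher and 3 lower, with a median of 0.16. In the fit of the 6 early libraries alone that split was 6 higher and 5 lower, and with library totals as the only scaling 4 were higher. That scaling moved the median of all unigenes from 0.02 to -0.09. None of the 4 unigenes paired with miR162, whose family targets the miRNA-processing enzyme DCL1, passed in edgeR's test with all leaf libraries, and 1 had an unadjusted p below 0.05. The most abundant, c129178.graph_c0, had a log2 value of -0.39 with an adjusted p of 0.0513, and -0.40 with 0.0177 without the 2 libraries that went against their labels. In that fit 1 of the 4 was called higher and 1 lower, and DESeq2 called 1 lower. The other passing unigenes of each family are named below, whether or not the rule selected them. Of the 34 that passed in these lists, 19 kept their call under every alternative but the test against a 2-fold change. The other 15 lost it under at least 1 alternative, most often with 1 library left out. Some of the 34 had no tag in early leaf of either genotype. In the nutrient and copper families these were c135453.graph_c1, c137212.graph_c1, c134022.graph_c0, c139337.graph_c0, c128177.graph_c0 and c139632.graph_c0. In the transcription factor families they were c122865.graph_c0, c81638.graph_c0, c123718.graph_c0, c132363.graph_c0, c135464.graph_c0, c130489.graph_c0, c124547.graph_c1 and c137074.graph_c1. The same held for c139738.graph_c0 of miR393-x.

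**Figure D3:**
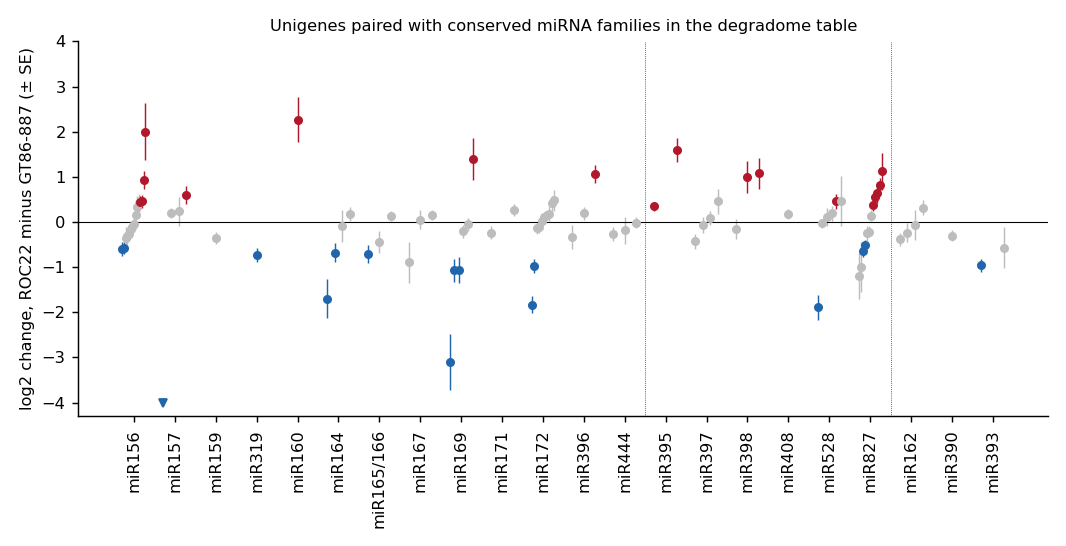
Log2 change in early leaf, ROC22 minus GT86_887, with its SE, of each tested unigene paired with a conserved miRNA family; red passed and was higher in ROC22, blue passed and was lower, grey did not pass, and dotted lines part the transcription factor families, the nutrient and copper families and the others. The triangle marks c81638.graph_c0, with no count in ROC22 and a fitted value of -8.53 beyond the axis. Among families with just 2 passing members, those of miR172 and miR164 lie below 0 and those of miR395 and miR398 above. Those of miR157 and miR528 lie 1 on each side.

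Within the miR156 and miR157 families the paired unigenes moved both ways. Of 15 tested for miR156, 4 were higher and 2 lower, in all 40.0% beside 33.8% of all tested unigenes. The most abundant that passed was c139690.graph_c0, at 4079, 3008 and 3774 CPM in ROC22 and 1907, 1797 and 1982 CPM in GT86_887. The groups did not overlap, and the log2 change was 0.93 ± 0.20 (adjusted p = 0.00234). Still more abundant was c126216.graph_c0, at 2950, 3660 and 3362 CPM in ROC22 and 5021, 3794 and 3590 CPM in GT86_887. Its groups overlapped and it did not pass, with a log2 value of -0.31 ± 0.16 (adjusted p = 0.152). Lower in ROC22 were c142254.graph_c0 (log2 change -0.57) and c118478.graph_c0 (-0.60), and higher were c137922.graph_c0 (1.999), c137074.graph_c1 (0.46) and c139744.graph_c0 (0.44). The last 3 lost their call when single libraries were left out. For c81638.graph_c0, paired with miR157-x, the ROC22 libraries gave 0 counts in sum and the GT86_887 libraries 131, which puts it at least 48.7-fold lower in ROC22. The other passing unigene of miR157, c123718.graph_c0, was higher at 0.59 on the log2 scale, a call lost in 5 of 14 alternatives. It was paired with miR157-y, which was not tested and whose seed differs from that of miR157-x. The SPL role of the family may not hold for it.

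The 2 unigenes of miR172 that passed were both lower in ROC22, of 10 tested (20%, beside 33.8% of all tested unigenes). The smallest adjusted p among unigenes of the transcription factor families belonged to c137236.graph_c0. Its level was 23.7, 26.3 and 25.4 CPM in ROC22 and 99.2, 80.8 and 87.7 CPM in GT86_887. The lowest GT86_887 library lay above every ROC22 library, and the log2 change was -1.83 ± 0.18 (adjusted p = 3.69e-06). In the degradome, with 1 library per genotype and no replicate check, it had 72 tags in ROC22 and 258 in GT86_887. The other was c136849.graph_c0, at 5.79 ± 0.929 CPM against 11.4 ± 1.18 CPM (SD, n = 3), with 6 and 40 tags. The entry miR172-y itself did not pass, with a log2 value of 0.18 ± 0.45.

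Other transcription factor families held fewer unigenes. For miR169, whose family targets NF-YA factors, 4 of 6 passed, beside 33.8% of all tested. Of these, c132990.graph_c1 and c124547.graph_c1 were paired with miR169-y, whose seed differs from that of miR169-x and miR169-z. The family role may not hold for them. Lower in ROC22 were c124281.graph_c2 at -3.10 ± 0.63 on the log2 scale, c132990.graph_c1 at -1.07 and c130489.graph_c0 at -1.06. The fourth, c124547.graph_c1, was higher at 1.40 with overlapping groups, and its call was lost in 6 of 13 alternatives. For miR164, whose family targets NAC factors, 2 of 4 tested unigenes passed. Both were lower: c132363.graph_c0 at a log2 change of -1.70 and c135464.graph_c0 at -0.68, the latter call lost in 4 of 14 alternatives. Also lower was c122865.graph_c0 of miR319-z (-0.73), of a family that targets TCP factors. The seed of miR319-z differs from that of miR319-y, so the role may not hold here, and the entry itself was not tested. Lower too was c138164.graph_c0 of miR165 and miR166 (-0.71), a call lost in 2 of 14 alternatives. Those families target class III HD-ZIP factors of leaf polarity. Higher in ROC22 was c123121.graph_c1 of miR396, at 13.3, 20.4 and 15.4 CPM against 8.96, 8.23 and 6.24 CPM. Its groups did not overlap, and the log2 change was 1.07 ± 0.20 (adjusted p = 0.000845). The single unigene paired with miR160-x, c127776.graph_c1, was at 5.15, 12.9 and 28.7 CPM in ROC22 and 1.35, 2.81 and 5.53 CPM in GT86_887. Its groups overlapped though it passed, with a log2 change of 2.27 ± 0.50 (adjusted p = 0.00279), and its tags numbered 246 and 24.

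Of 12 tested unigenes paired with miR827, 5 were higher and 2 lower in ROC22, beside 33.8% of all tested that passed. The most abundant of the nutrient and copper families was c138458.graph_c0, at 410, 412 and 406 CPM in ROC22 and 312, 239 and 278 CPM in GT86_887. It rose by a log2 change of 0.56 ± 0.13 (adjusted p = 0.00314), with groups apart. Next to it, c134022.graph_c0 was at 327.6 ± 18.0 CPM against 185.5 ± 7.74 CPM (SD, n = 3). The other higher ones were c121546.graph_c0 (log2 change 0.63), c139632.graph_c0 (0.37) and c132560.graph_c0 (1.12). Their calls were lost in 5, 7 and 8 of 14 alternatives, and the groups of the first and the last overlapped. The lower ones were c139337.graph_c0 (-0.51) and c128177.graph_c0 (-0.63), the latter call lost with no filter on low counts. Both unigenes of miR395, a family of sulfur supply, were higher. Of these, c135453.graph_c1 was at 9.83, 14.2 and 13.0 CPM in ROC22 and 3.94, 3.41 and 4.87 CPM in GT86_887, a log2 change of 1.60 ± 0.26 (adjusted p = 0.000291). The other, c137212.graph_c1, was higher at 0.35, a call lost with no filter, with library totals only and without ROC22 early leaf 3. The entry miR395-z itself was low, at 0.618, 5.62 and 0 CPM in ROC22 and 1.12, 1.99 and 3.14 CPM in GT86_887. For miR398, whose family targets copper/zinc superoxide dismutases, 2 of 3 tested unigenes passed. They were c140919.graph_c0 and c130995.graph_c0, higher at 1.08 and 0.99 on the log2 scale. Both lost their call when single libraries were left out. For miR528-x, c126382.graph_c1 was at 4.58, 4.06 and 4.50 CPM in ROC22 and 19.1, 13.0 and 16.7 CPM in GT86_887. It fell by 1.89 on the log2 scale (SE 0.28, adjusted p = 0.000118), while c133172.graph_c0 of the same entry was higher at 0.46, a call lost with single libraries left out.

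Of the 2 unigenes paired with miR393-x, 1 passed, beside 33.8% of all tested unigenes. This was c139738.graph_c0, at 63.3, 64.0 and 72.0 CPM in ROC22 and 134, 117 and 138 CPM in GT86_887. All ROC22 libraries were lower, and the log2 change was -0.96 ± 0.13 (adjusted p = 7.46e-05). The other, c110649.graph_c1, did not pass, with overlapping groups and a log2 value of -0.57 ± 0.44 (adjusted p = 0.352).

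**Figure D4:**
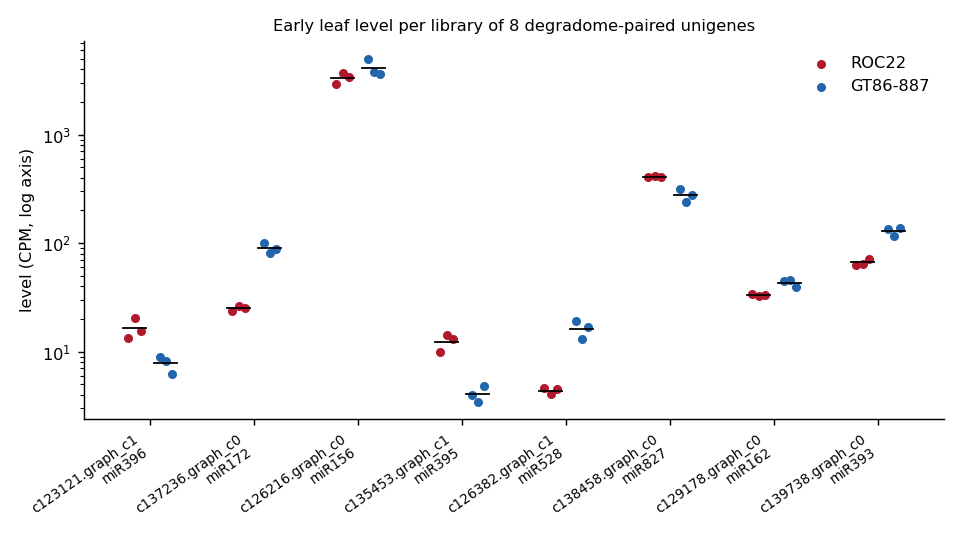
Level (CPM, log axis) in each early leaf library of the 8 degradome-paired unigenes selected by rule, with the miRNA family below each identifier; red ROC22, blue GT86_887, and the bar is the mean of 3 libraries. The groups stand apart for all but c126216.graph_c0; c129178.graph_c0 of miR162 stands apart too but did not pass with all leaf libraries (adjusted p = 0.0513, and 0.0177 without the 2 libraries that went against their labels).

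The small RNA libraries of the same groups were read for the entries behind these pairs. Of 180 entries tested, 31 (17.2%) passed, 15 higher and 16 lower in ROC22. With RLE scaling in place of TMM there were 23 higher and 16 lower. DESeq2 called 47, of which 28 were higher. Without the small RNA libraries ROC22 early leaf 3 and GT86_887 early leaf 1 in turn, 17 and 19 entries passed, and without GT86_887 early leaf 2 it was 43, of which 28 were higher. The level of miR156-x was 13565, 14896 and 12852 CPM in ROC22 and 5295, 7413 and 6235 CPM in GT86_887, with groups apart and a log2 change of 1.12 ± 0.29 (adjusted p = 0.00949). For miR393-x the levels were 3711, 3967 and 6233 CPM against 1527, 1738 and 1615 CPM, a log2 change of 1.51 ± 0.37 (adjusted p = 0.00669). For miR528-x they were 109442, 56840 and 96337 CPM against 23356, 42054 and 27385 CPM, a log2 change of 1.501 ± 0.41 (adjusted p = 0.0142). Each of these 3 calls was lost when certain single libraries were left out. Of 10 passing entries of conserved families, only miR444-z, higher at 1.73 on the log2 scale, kept its call under every alternative. Also higher were miR444-y (1.61), miR156-y (1.26), miR156-z (1.01) and miR528-y (1.39). Lower in ROC22 were miR398-x (-1.76) and miR408-x (-1.55). The passing unigenes of miR398 were not paired with miR398-x. They were paired with miR398-y, which did not pass (log2 value -0.58, adjusted p = 0.399), and with miR398-z, which was not tested. None of the 3 tested unigenes paired with miR444 passed. Both the entry and the unigene passed in 17 of 201 pairs in which both were tested, in opposite directions in 9 and in the same direction in 8. The entry passed in 54 pairs, so the unigene passed in 31.5% of these, close to the 33.8% of all tested unigenes. The 17 pairs held 6 entries, and miR156-x alone entered 5. The opposite pairs included miR393-x with c139738.graph_c0 and miR528-x with c126382.graph_c1, and the same-direction ones miR528-x with c133172.graph_c0. Unigenes of miR156-x were found in both sets, c142254.graph_c0 in the first and c139690.graph_c0 in the second. In the early leaf degradome, c139738.graph_c0 had 0 tags in either genotype. Tags in ROC22 and GT86_887 numbered 4 and 0 for c126382.graph_c1 and 2 and 0 for c133172.graph_c0. They numbered 5 and 0 for c142254.graph_c0 and 6 and 2 for c139690.graph_c0.

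The early leaf difference recurred in part at the later stages, which were measured in other libraries. In middle leaf 27% of all tested unigenes passed, and in late leaf 30.5%, and without the 2 libraries that went against their labels 38.1% and 36.5%. Of the 12724 early calls, 6595 (51.8%) passed in the same direction in middle leaf and 7517 (59.1%) in late leaf, and 75 and 83 passed in the opposite direction. The sign alone was the same for 90.6% and 92.0%. Without the 2 libraries, 9899 of 16088 early calls (61.5%) recurred in middle leaf and 9809 (61.0%) in late leaf, 142 and 168 passed in the opposite direction, and 90.6% and 90.4% had the same sign. Among the paired unigenes, c137236.graph_c0 of miR172 was lower in ROC22 at all 3 stages, with log2 changes of -1.83, -0.92 and -0.64, and of -1.85, -0.80 and -0.66 without the 2 libraries. Neither the middle nor the late change of c139738.graph_c0 of miR393-x passed, at -0.07 and -0.23 with all libraries and -0.08 and -0.26 without the 2. The difference was not confined to early leaf, since with all libraries this unigene was also lower in ROC22 in early stem. There its log2 change was -1.38 (adjusted p = 8.4e-08).

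The genotype difference itself was also compared between stages. The early difference differed from the middle one for 243 unigenes (0.645%) and from the late one for 328 (0.871%), and both comparisons share the early libraries. These counts depended on the test and on single libraries. DESeq2 called 1306 and 1228, and edgeR with no filter on low counts 2899 and 1832. Without the 2 libraries that went against their labels they were 921 and 1265. For the middle stage the count was 676 without GT86_887 middle leaf 2. It was 127 and 55 without ROC22 early leaf 2 and 3, and 67 and 69 without GT86_887 early leaf 1 and 2. It was 67, 50 and 81 without ROC22 middle leaf 1, 2 and 3. For the late stage it was 206, 184 and 103 without ROC22 early leaf 1, 2 and 3, and 144, 148 and 132 without GT86_887 early leaf 1, 2 and 3. It was 106 and 138 without ROC22 late leaf 2 and 3, and 146 and 162 without GT86_887 late leaf 1 and 3.

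The largest selected differences were these. In early leaf c139518.graph_c0 was at 72.0, 6.77 and 33.3 CPM in ROC22 and 332.9, 347.4 and 270.8 CPM in GT86_887. It was lower in ROC22 at both stages and more so at the middle one. Group means scaled over all 36 mRNA libraries were 0.563 ± 0.374 and 267.5 ± 102 CPM in middle leaf (SD, n = 3). On that scale the early leaf means were 40.0 ± 35.2 and 343 ± 41.6 CPM. The early minus middle difference was 5.77 on the log2 scale. Without the 2 libraries it was 5.42 (adjusted p = 0.00784). In the other direction c125763.graph_c3 gave -4.77, and -4.21 without the 2 libraries (adjusted p = 0.00811), a call lost in 10 of 17 alternatives. Against the late stage, c113498.graph_c0 rose in early ROC22 leaf by a log2 change of 1.71 and gave an early minus late difference of -3.70, with and without the 2 libraries. Its group means in late leaf were 66.7 ± 13.6 CPM in ROC22 and 1.58 ± 0.734 in GT86_887. The difference of c116174.graph_c0 was 8.12, and 8.13 without the 2 libraries, with 2.39, 10.6 and 35.2 CPM across the ROC22 early libraries, and its call was lost in 8 of 17 alternatives. Of the paired unigenes, c139738.graph_c0 of miR393-x gave an early minus middle difference of -0.90 (adjusted p = 0.0413), and also -0.90 without the 2 libraries (adjusted p = 0.0312). The early minus late difference of c137236.graph_c0 of miR172 was -1.19 (adjusted p = 0.0381), and also -1.19 without them (adjusted p = 0.0109). Each of these calls was lost in 11 of 17 alternatives, among them those that left out any 1 early ROC22 library.

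The genotype difference was also measured in early stem. There 34.6% of all tested unigenes passed, and 39% without the 2 libraries. Of the early leaf calls, 5883 (46.2%) passed in stem in the same direction, 499 in the opposite one, and 76.6% had the same sign. Without the 2 libraries 7677 of 16088 (47.7%) passed in stem in the same direction, 841 in the opposite one, and 74.3% had the same sign. The leaf difference differed from the stem difference for 4214 of 42119 unigenes (10%), and for 6540 of 44180 (14.8%) without the 2 libraries. The selected unigene with the largest positive difference was c124968.graph_c0. Its group means in early leaf were 75.6 ± 32.7 CPM in ROC22 and 0.480 ± 0.342 in GT86_887, and in early stem 0.553 ± 0.343 and 59.4 ± 23.8 CPM (SD, n = 3). The genotype with the higher level was thus ROC22 in leaf and GT86_887 in stem, and the leaf minus stem difference was 14.0 on the log2 scale, with and without the 2 libraries. The reverse held for c138144.graph_c1, at 0.116 ± 0.0278 and 1.44 ± 0.356 CPM in early leaf and 74.2 ± 43.1 and 0.103 ± 0.101 CPM in early stem, a difference of -13.0, and -12.9 without the 2 libraries. Its ROC22 leaf level rests on 2, 2 and 3 counts, and its early leaf call was lost without any 1 ROC22 early leaf library. For c137236.graph_c0 the leaf minus stem difference was -1.28 (adjusted p = 0.0115), and -1.22 without the 2 libraries (adjusted p = 0.0102). That call was lost without ROC22 early stem 1 or GT86_887 early stem 1. Of the 34 paired unigenes of conserved families that passed in early leaf, 8 had a leaf minus stem difference that passed, 4 positive and 4 negative, but the 34 were themselves taken for passing in leaf. They included c127776.graph_c1 of miR160-x at 2.46 (adjusted p = 0.00761), c122865.graph_c0 of miR319-z at -1.47 (adjusted p = 0.00254) and c142254.graph_c0 of miR156 at -0.81 (adjusted p = 0.00593). Without the 2 libraries these were 2.52, -1.41 and -0.75, and all 3 passed.

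**Figure D5:**
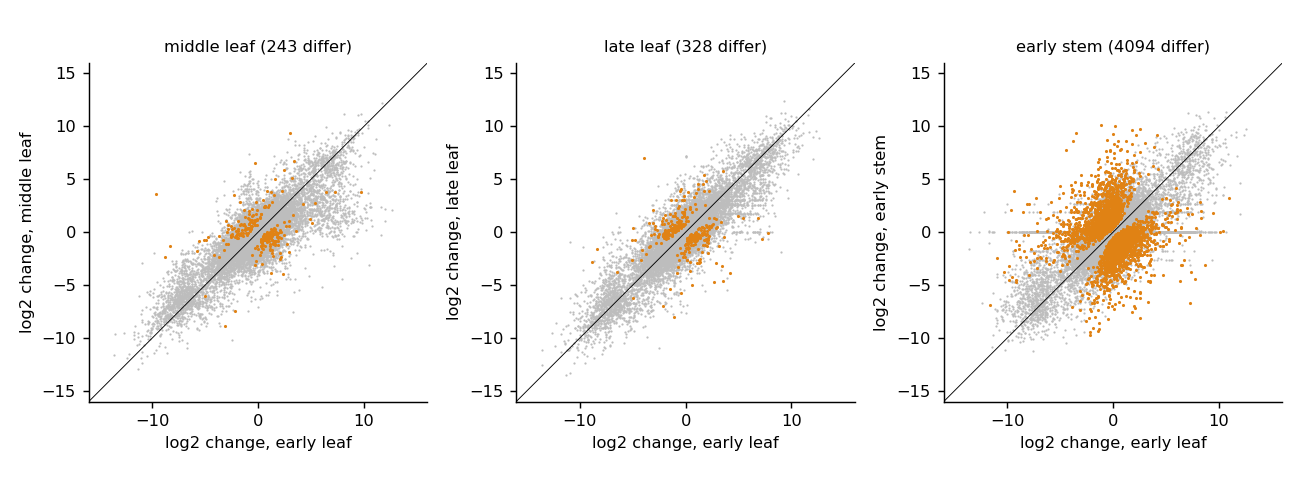
Log2 change between the genotypes (ROC22 minus GT86_887) in early leaf against that in middle leaf, late leaf and early stem; each point is a unigene tested in leaf, orange where the difference between the 2 changes passed, and the line marks equal changes. Orange points number 243, 328 and 4094, the last being those of the 4214 that were also tested in leaf.

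Unigenes whose identifiers share the part before the dot mostly moved together, but not always. Of 621 such groups with 2 or more passing unigenes, 136 (21.9%) held both directions. Among pairs within a group, 598 moved in the same direction and 157 (20.8%) in opposite ones. Over all tested unigenes the 2 directions were near equal, with 6313 higher and 6411 lower. With counts summed over each group, 11617 of 34342 (33.8%) passed. Lengths implied by count and FPKM, which varied by a median of 1.1-fold between libraries and are approximate, had medians of 1022 bases for higher, 949.6 for lower and 926.2 for other unigenes. The unigenes counted only in ROC22 or only in GT86_887 had medians of 695.1 and 736.4 bases, against 1077 and 1095 for all with 10 or more counts in each library of that genotype. Median summed counts of the 2 sets were 89 and 87, and lengths were not compared at equal level.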

How the data were processed

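Trizol was used to extract total RNA, and standard Illumina libraries were sequenced, per the labels' protocols. The authors deposited a raw count per unigene and library with its FPKM value, named as such per the file headers, a count per miRNA entry and degradome tag numbers. The aligner, the assembly and the counting program: not given in the sources used here. Groups came from the genotype, tissue and growth phase labels. Of the sample columns in the 3 tables, 80 were not used.

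The test of counts was that of edgeR 4.0.16 under R 4.3.3 (TMM scaling, filterByExpr, 1 coefficient per group, trended dispersion, quasi-likelihood test, Benjamini-Hochberg adjustment over all unigenes tested, adjusted p below 0.05). All 18 leaf libraries shared the spread for leaf, all 36 mRNA libraries for leaf against stem, and 12 leaf small RNA libraries for miRNAs. SE is the absolute log2 change divided by the square root of F. The method was run on simulated counts drawn with the trended spread that the fit assumes, so that run cannot show how well the fit suits these data. DESeq2 1.42.0 and other settings were alternatives. FPKM served for ranking and lengths only. CPM of a set sum used library totals alone. CPM of single unigenes in early leaf was TMM-scaled over the 18 leaf libraries. Group means set beside those of other stages or of stem were TMM-scaled over all 36 mRNA libraries. Summaries and figures used Python 3.11.15. A floor of 3 counts covers counting error only, and 3 counts correspond to 0.130 to 0.167 CPM. Replicate pairs differed beyond sampling noise, with chi-square per degree of freedom of 12.7 to 29.5, so no library was counted as a repeat.

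The comparison and the lists were chosen with earlier results of these data known. Named unigenes were, per direction, that with the largest count among those absent from the other genotype, the most abundant that passed at 2-fold with groups apart, the largest passing interaction above the median level, and per miRNA list the smallest adjusted p and the most abundant.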

Additional observations from a re-analysis of the deposited data

Results flagged for a closer look

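A test of the difference between groups picked out the following. The genotype difference in early leaf differed from that in middle leaf for 243 unigenes, from that in late leaf for 328 and from that in early stem for 4214. The largest selected differences on the log2 scale were 5.77 for c139518.graph_c0 and -4.77 for c125763.graph_c3 against middle leaf. Against late leaf they were 8.12 for c116174.graph_c0 and -3.70 for c113498.graph_c0, and against early stem 14.0 for c124968.graph_c0 and -13.0 for c138144.graph_c1.

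Among unigenes paired with miRNAs, c137236.graph_c0 of miR172 differed by -1.19 against late leaf and by -1.28 against early stem, and c139738.graph_c0 of miR393 by -0.895 against middle leaf. Against early stem the difference was also negative for c122865.graph_c0 of miR319 (-1.47), c142254.graph_c0 of miR156 (-0.807) and c139337.graph_c0 of miR827 (-0.748). It was positive for c127776.graph_c1 of miR160 (2.46), c130995.graph_c0 of miR398 (2.0), c139744.graph_c0 of miR156 (0.858) and c139632.graph_c0 of miR827 (0.725). The values of c139337.graph_c0, c130995.graph_c0, c139744.graph_c0 and c139632.graph_c0 were -0.690, 2.07, 0.917 and 0.784 without the 2 libraries that went against their labels. The call of c139337.graph_c0 was lost in 15 of 17 alternatives that of c130995.graph_c0 in 4, and those of c139744.graph_c0 and c139632.graph_c0 in 1 each. The calls of c139738.graph_c0 against middle leaf and of c137236.graph_c0 against late leaf were each lost in 11 of 17, and that of c137236.graph_c0 against early stem in 2. Among the differences above, that of c125763.graph_c3 was lost in 10 of 17 and that of c116174.graph_c0 in 8.

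Outside the early leaf, the unigenes counted only in ROC22 summed to 643.4 CPM in the library labelled GT86_887 middle leaf 1 and to 602.5 CPM in that labelled GT86_887 middle stem 1, against at most 8.40 CPM in the other GT86_887 libraries. What led to this was not tested.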

How the results depend on the processing

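The count of unigenes that differed in early leaf stayed within 1.5 times its value of 12724 under every alternative but the test against a 2-fold change, which called 4739 (2107 higher, 2632 lower in ROC22). No call turned direction. Library totals as the only scaling gave 5079 higher and 7562 lower. With 1 early library left out it was 10341 to 11117 (5083 to 5424 higher, 5258 to 5693 lower). The interaction counts were far less stable. For early minus middle leaf, DESeq2 called 1306 (739 and 567 by direction), no filter 2899 (2134 and 765), and leaving 1 library out 50 to 921 (24 to 506 and 23 to 415). For early minus late leaf, DESeq2 called 1228 (573 and 655), no filter 1832 (873 and 959), and leaving 1 library out 103 to 233 (51 to 120 and 43 to 137). For leaf minus stem, leaving 1 library out gave 2812 to 3424 (1258 to 1816 and 1396 to 1777), and DESeq2 2779 in the positive direction. Leaving out the 2 libraries that went against their labels, chosen after seeing the data, gave 921 (506 and 415), 1265 (602 and 663) and 6540 (3276 positive). For miRNA entries DESeq2 called 47 (28 higher), RLE scaling 23 higher, no filter 25 lower, and leaving 1 library out 17 to 43 (6 to 28 and 10 to 15). Unigenes counted in 1 genotype numbered 712 and 894 at a minimum of 5 counts and 201 and 296 at 20. Deviations from the group mean correlated at 0.092, -0.078 and 0.037 between same-numbered early leaf libraries of the genotypes. Between differently numbered ones they correlated at -0.110 to 0.084. With 3 libraries per group these values cannot show whether the numbers pair libraries. The replicate block gave 12556 early leaf calls, 194 positive early minus middle differences against 124, and otherwise counts within 1.5 times. The causes of these shifts were not tested. At these depths a count of 0 in a library allows up to 0.130 to 0.167 CPM.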
